A study of Mus musculus with 12 samples.

Results

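The genes described here are 10 members of the BCL2 family, chosen by name from 24982 gene symbols measured in mouse splenic B lymphocytes. They are Bcl2, Bcl2l1 and Mcl1, which encode survival proteins, Bcl2l11, Bbc3, Pmaip1, Bid and Bmf, which encode BH3-only death proteins, and Bax and Bak1, which encode the effectors of death. No measured value was used to choose them, and all 10 were high enough to be tested in each comparison. RNA came from mice aged 6 weeks in 3 groups of 4 libraries. The first group was WT, of the strain given as C57BL/J6. The second, Eμ-Myc, carries a Myc transgene driven by the immunoglobulin heavy-chain enhancer, which acts in the B lineage. The third, Eμ-Myc; PRPS2 KO, called the knockout group here, carries the same transgene and lacks PRPS2, an enzyme that makes phosphoribosyl pyrophosphate for nucleotide synthesis. The study asked which expression programmes Myc alters in B cells, and whether loss of PRPS2 alters them in turn.

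BCL2 family proteins decide whether the outer mitochondrial membrane is opened, which releases cytochrome c and starts the caspase cascade. Survival members such as BCL2, BCL-XL (from Bcl2l1) and MCL1 hold the effectors BAX and BAK in check, and BH3-only members either block the survival proteins or activate the effectors. In B lymphocytes these proteins set the lifespan of resting and activated cells, and in Eμ-Myc mice loss of BH3-only genes or gain of Bcl2 is known to speed lymphoma.

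Values are the deposited coverage per gene, divided by 1 scaling factor per library, and called scaled coverage below. Read depth per gene is unknown, so errors are SDs over a group's 4 libraries and no counting interval is given. In bulk RNA, fewer cells of a type and less RNA per cell cannot be told apart. The labels call the libraries biological replicates without naming the animals, so p-values measure the spread between these libraries. A log2 fold change is the difference of mean log2(scaled coverage + 0.5), and a gene is called where its limma p, adjusted over all genes tested, is under 0.05.

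Prps2 and Myc followed the labels. In the order WT, Eμ-Myc, knockout, Prps2 averaged 125 ± 19.8, 246 ± 36.5 and 17.1 ± 0.857, and Myc averaged 272 ± 52.8, 1915 ± 311 and 2279 ± 1042 (SD, n = 4 each). All 8 general B-cell markers were above 0 in all 12 libraries, with summed scaled coverage of 6545 to 12820 in WT, 7802 to 9543 in Eμ-Myc and 7189 to 7812 among knockout libraries. Myeloid markers summed to 8170 to 24880 in WT, 5772 to 16990 in Eμ-Myc and 1325 to 15540 among knockout libraries. In some libraries this was above the B-cell sum, as in WT library 1, at 24880 beside 6794. Such sums are not shares of cells. The knockout libraries fell into 2 pairs: across 10672 genes knockout libraries 1 and 2 correlated at r of 0.987 and libraries 3 and 4 at 0.996, against 0.822 to 0.877 between the pairs. The summed scaled coverage of T-cell markers was 1194 and 1310 in knockout libraries 1 and 2, 252 and 253 in libraries 3 and 4, 425 to 530 in Eμ-Myc and 1187 to 4791 in WT. For mature B-cell markers the sums were 2331 and 2085, then 523 and 582, in the knockout pairs, 1116 to 1634 in Eμ-Myc and 3577 to 5314 in WT. The proliferation list summed to 1263 and 1789 in knockout libraries 1 and 2, to 3840 and 3837 in libraries 3 and 4, to 2160 to 2955 in Eμ-Myc and to 419 to 548 in WT. No marker of the T-cell, NK-cell, myeloid or mature B-cell lists was at 0 in any library. Each member's log2 fold change in the knockout group is therefore also given without each pair, a choice made with earlier results of these data known. The pairs were told apart by these same values, so leaving one out removes the spread between them. Such values are given here as a description of the remaining libraries, with no p-value, and values of the other gene lists rest on all 4 knockout libraries. Without counts, whether knockout libraries 3 and 4 differ by more than sampling noise could not be tested, and the p-values count them as separate replicates.

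Short stretches upstream of 3 death genes are shown because they hold the letters bound by MYC or by FOXO factors, transcription factors known to act on this family. RefSeq start sites (GRCm38.p6) gave 16 promoter windows of 300 bases for 9 of the 10 members. Each window was searched on both strands for CACGTG, the palindromic E-box, and for GTAAACA, a FOXO motif; no printed match overlaps another. Capitals mark the match, and each line reads 5′ to 3′ along the gene's strand.
Bax, E-box 9 bases before the start, chr7:45466899-45466937, minus strand: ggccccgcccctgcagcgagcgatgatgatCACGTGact
Bbc3, E-box 64 bases before a start, chr7:16310337-16310402, plus strand: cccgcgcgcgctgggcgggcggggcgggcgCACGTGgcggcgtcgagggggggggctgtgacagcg
Bbc3, FOXO motif on the opposite strand 167 bases before another start, chr7:16310064-16310130: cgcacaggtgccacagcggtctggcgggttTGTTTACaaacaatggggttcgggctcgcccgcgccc
Bcl2l11, FOXO motif 227 bases before the start, chr2:128125788-128125847, plus strand: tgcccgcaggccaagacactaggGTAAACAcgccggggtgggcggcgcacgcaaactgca
An E-box was found in windows of 2 of the 9 members, and for 8.09% of the 27025 genes with a window (2 of 16 windows, against 7.15% of 32851 windows). A FOXO motif was found for 2 of the 9 members, and for 4.05% of genes (2 of 16 windows, against 3.65%). The E2F motif TTTCGCGC, also searched, was found for 1 member, Bcl2l1, and for 0.37% of genes (1 of 16 windows, against 0.32%). The Bax window holds another E-box 35 bases after the start, which is not shown. A match is a description of these letters and not of binding.

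Eμ-Myc was first set against WT, to see what the transgene changes. Among the survival genes Bcl2 and Mcl1 fell, and among the death genes Bax and Bak1 rose while Bcl2l11 and Bmf fell. The other 4 members, Bcl2l1, Bbc3, Pmaip1 and Bid, did not pass the test. Calls were thus made for 6 of 10 members, 2 higher and 4 lower. Across all 12723 genes tested, 55.1% were called, 30.4% higher and 24.7% lower, so the members' share was near the background. The median log2 fold change of the 10 members was -0.25, beside -0.01 over all genes tested. Groups did not overlap for 6 of the 10 members, beside 51.4% of all genes tested.

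**Figure D1:**
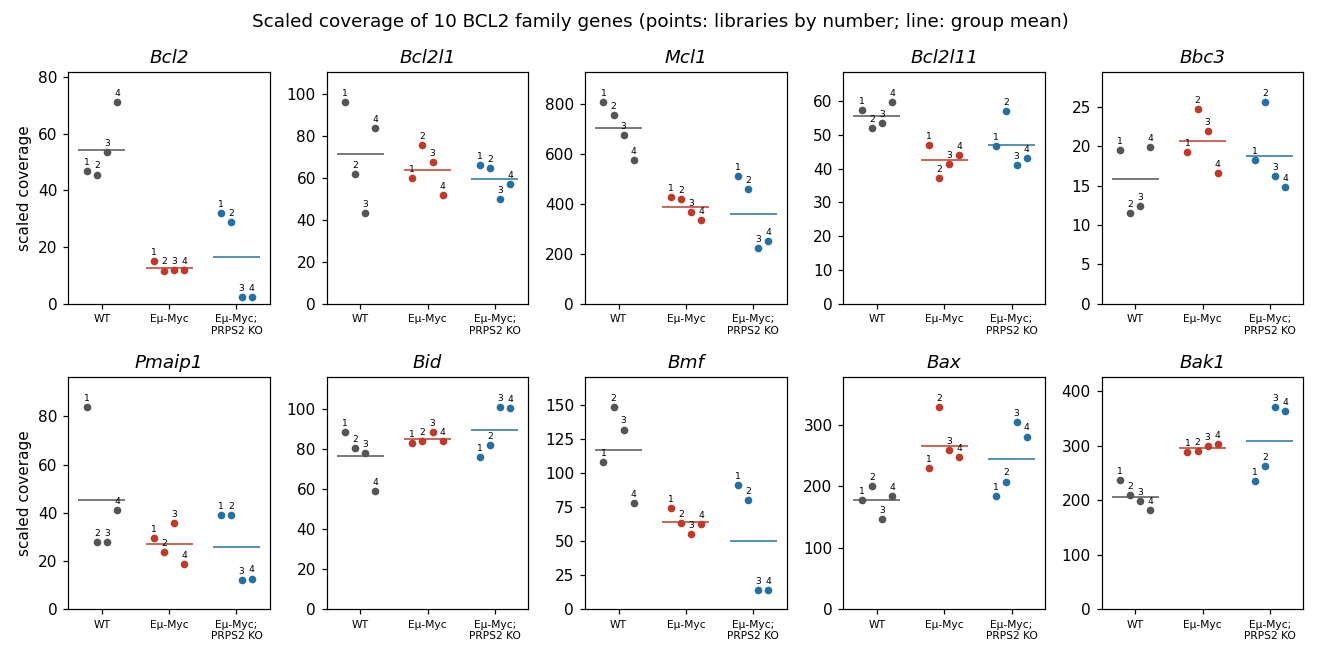
Scaled coverage of the 10 BCL2 family genes in each of the 12 libraries, on linear axes that start at 0, with a numbered point for each library and a line for each group's mean. Bcl2 lies at 45.6 to 71.1 in WT and at 11.7 to 15.1 in Eμ-Myc, and spreads from 2.44 to 32.1 in the knockout group.

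Bcl2, the founding survival gene (chr1:106538178-106714274, minus strand), stood at 46.7, 45.6, 53.5 and 71.1 in WT libraries 1 to 4 and at 15.1, 11.7, 11.9 and 11.8 in the Eμ-Myc libraries. Every Eμ-Myc library was far below every WT library, and WT library 4, the highest, was also the one with the most T-cell marker coverage, 4791. WT libraries 1 to 3 had T-cell marker sums of 1709, 1187 and 1323. Group means were 54.2 ± 11.8 and 12.7 ± 1.66 (SD, n = 4 each). The log2 fold change was -2.04 (SE 0.16, 95% interval -2.41 to -1.67, limma adjusted p 1.24e-05), a 4.12-fold drop and the largest change among the 10 members. Of the T-cell list, 10 of 11 genes measured and tested fell in the same comparison, as did 8 of 8 of the NK-cell list and 7 of 7 of the mature B-cell list. The immature B-cell list summed to 453 to 817 in WT and 1337 to 1995 in Eμ-Myc. Vpreb3 made up most of that sum, with means of 436 and 1440. Of the 6 genes of this list that averaged at least 1 in both groups, 2 rose (Vpreb3 and Rag1), 1 fell (Il7r) and 3 did not pass. The part of these cell types in the value of Bcl2, or of the other members called in this comparison, was not tested.

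Mcl1 encodes a short-lived survival protein that B cells require (chr3:95658788-95663176, plus strand). Scaled coverage was 806, 755, 673 and 576 in WT and 427, 420, 365 and 335 in Eμ-Myc. It was the most highly covered member in every one of these libraries, and the lowest WT library was above the highest Eμ-Myc library. From a mean of 702 ± 101 to one of 387 ± 44.0 (SD, n = 4 each), Mcl1 fell 1.81-fold (log2 fold change -0.86, SE 0.13, limma adjusted p 0.000536).

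Bcl2l1, whose main product is the survival protein BCL-XL (chr2:152780668-152831728, minus strand), was at 96.2, 61.9, 43.5 and 84.0 in WT and at 60.1, 75.9, 67.5 and 51.9 in Eμ-Myc. The WT libraries spread over a wider range than the Eμ-Myc libraries and enclosed them. Its log2 fold change was -0.11 (SE 0.24, 95% interval -0.65 to 0.42, limma adjusted p 0.71), and without WT library 1 it was 0.05.

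Bcl2l11 encodes BIM, a BH3-only protein needed to remove self-reactive lymphocytes (chr2:128126038-128162547, plus strand). The WT libraries held 57.3, 51.9, 53.5 and 59.7, and the Eμ-Myc libraries 47.1, 37.2, 41.3 and 44.2. The groups were tight and did not overlap. Bcl2l11, which has the FOXO motif shown above, fell 1.31-fold (log2 fold change -0.39, SE 0.11, limma adjusted p 0.0115).

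Bmf, a BH3-only gene whose protein is linked to the cytoskeleton (chr2:118528757-118549687, minus strand), was at 108, 148, 132 and 78.1 in WT and at 74.2, 63.4, 55.0 and 62.5 in Eμ-Myc. The gap between WT library 4 and Eμ-Myc library 1 was narrow. It fell 1.78-fold (log2 fold change -0.83, SE 0.19, limma adjusted p 0.00503). The call was lost when all 12 libraries shared one fit (limma adjusted p 0.24).

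Bbc3 encodes PUMA and Pmaip1 encodes NOXA, both BH3-only proteins and both targets of p53. Bbc3 (chr7:16308393-16318205, plus strand) was at 19.5, 11.5, 12.4 and 19.9 in WT and at 19.3, 24.8, 22.0 and 16.6 in Eμ-Myc. It was the lowest of the 10 members in each WT library, and its groups overlapped. Bbc3, which has both the E-box and the FOXO motif shown above, did not pass. Its log2 fold change was 0.40 (SE 0.21, 95% interval -0.08 to 0.88, limma adjusted p 0.141), and 0.264 to 0.519 over single left-out libraries.

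Pmaip1 (plus strand) stood at 83.7, 27.8, 27.8 and 41.3 in WT and at 29.5, 23.8, 35.8 and 18.6 in Eμ-Myc. WT library 1 was the highest by a wide margin, and this library also had the highest myeloid marker sum, 24880, against 8170 to 14560 in the other WT libraries. In Eμ-Myc libraries 1 to 4 the myeloid sums were 10120, 16990, 6810 and 5772, an order that Pmaip1 did not follow. The log2 fold change was -0.62 (SE 0.36, 95% interval -1.43 to 0.19, limma adjusted p 0.166). Leaving out single libraries gave values from -0.799 to -0.273. The part of myeloid RNA in the value of WT library 1 was not tested.

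Bid, a BH3-only gene whose protein carries the signal from death receptors to mitochondria (chr6:120891930-120916853, minus strand), was at 88.4, 80.2, 77.7 and 58.7 in WT and at 83.0, 83.9, 88.4 and 83.9 in Eμ-Myc. The Eμ-Myc libraries lay within the WT range or at its top. Its log2 fold change was 0.17 (SE 0.13, 95% interval -0.12 to 0.45, limma adjusted p 0.284), and scaling by total coverage gave -0.01. Leaving out single libraries gave values from 0.049 to 0.244.

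The effector Bax (chr7:45461697-45466898, minus strand), which forms pores in the mitochondrial outer membrane, was at 177, 200, 147 and 184 in WT and at 230, 329, 259 and 249 in Eμ-Myc. The other effector, Bak1 (chr17:27019810-27029009, minus strand), was at 236, 210, 198 and 181 in WT and at 289, 290, 299 and 302 in Eμ-Myc. For both genes each Eμ-Myc library was above each WT library, and Bak1 varied little among the Eμ-Myc libraries. Means were 177 ± 22.2 and 267 ± 43.1 for Bax and 206 ± 23.1 and 295 ± 6.74 for Bak1 (SD, n = 4 each). Bax, whose upstream E-box is shown above, rose 1.50-fold (log2 fold change 0.59, SE 0.14, limma adjusted p 0.00578). Bak1 rose 1.43-fold (log2 fold change 0.52, SE 0.10, limma adjusted p 0.00188). Exons of Ggnbp1 on the opposite strand cover 25.5% of the exonic bases of Bak1, and exons of Bcl2l13 cover 17.7% of those of Bid. Exons of Gm45808, on the same strand, cover 12.2% of those of Bax, and exons of an antisense gene cover 6.1% of those of Bcl2. Gm45808 and this antisense gene were not analysed here, and strand could not separate Gm45808 from Bax. The libraries were directional, but whether counting used strand is not given in the sources used here. Scaled coverage of Ggnbp1 was 29.7 or less in every library, below Bak1 throughout, and Bcl2l13 was likewise below Bid.

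**Figure D2:**
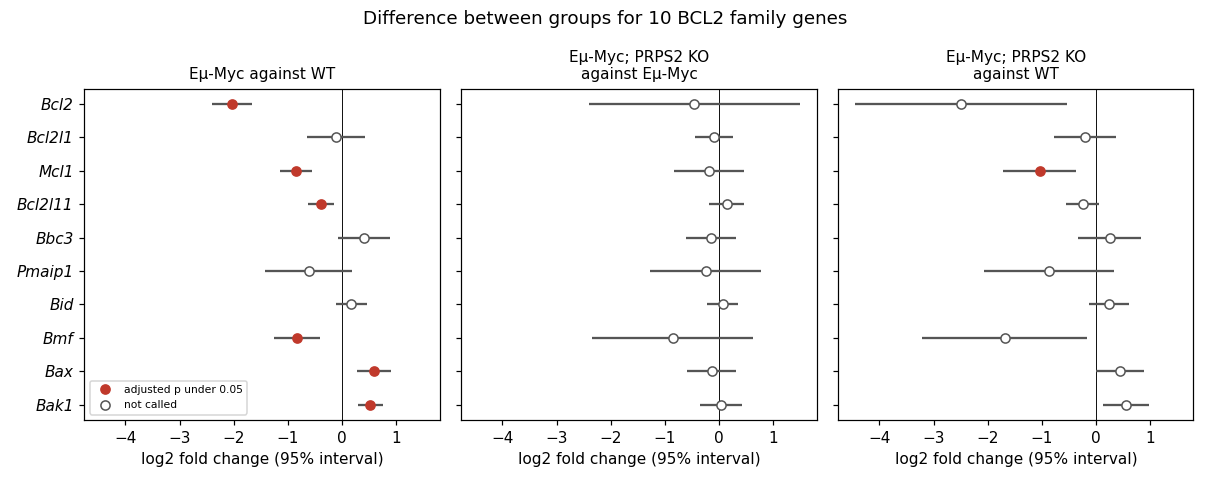
Log2 fold change of each of the 10 genes in the 3 comparisons, with 95% intervals from limma, with filled red points where the gene was called. Intervals for the knockout group are wide for Bcl2, from -2.41 to 1.50 against Eμ-Myc, and narrow for Bid.

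The second comparison set the knockout group against Eμ-Myc and asked what PRPS2 loss adds when Myc is driven. No member passed the test: 0 of 10 were called in limma, and 0 of 10 had an unadjusted p under 0.05. Over 12551 genes tested, 1 gene was called, which is Prps2 itself (0.00797% called, 0% higher and 0.00797% lower), and 121 had an unadjusted p under 0.05. Groups overlapped for all 10 members, and failed to overlap for 1.52% of all genes. The median log2 fold change of the members was -0.15, beside -0.03 over all genes. The median SD of log2 values over 10672 genes was 0.362 among knockout libraries, 0.2 in Eμ-Myc and 0.197 in WT.

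Bcl2 was at 32.1 and 28.7 in knockout libraries 1 and 2 and at 2.44 in both libraries 3 and 4. The first pair lay above every Eμ-Myc library and the second below every one. The knockout mean was 16.4 ± 16.2, above that of Eμ-Myc, 12.7 ± 1.66 (SD, n = 4 each). The log2 fold change of Bcl2, taken from mean log2 values, had the opposite sign, at -0.46 (SE 0.85, 95% interval -2.41 to 1.50). Without libraries 1 and 2 it was -2.15, and without libraries 3 and 4 it was 1.24. The direction for Bcl2 thus turned with the pair left out.

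Bmf had the same split, with 91.1 and 79.9 in knockout libraries 1 and 2 and 13.9 and 14.0 in libraries 3 and 4. Again the Eμ-Myc range, 55.0 to 74.2, lay between the pairs. The log2 fold change was -0.86 (SE 0.65, 95% interval -2.35 to 0.63), -2.15 without libraries 1 and 2 and 0.42 without libraries 3 and 4.

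For Mcl1 the knockout libraries held 510, 457, 223 and 249, and the log2 fold change of -0.19 (SE 0.28, 95% interval -0.84 to 0.46) became -0.71 without libraries 1 and 2 and 0.33 without libraries 3 and 4. Pmaip1 was at 39.0 in both knockout libraries 1 and 2 and at 11.9 and 12.7 in libraries 3 and 4. Its log2 fold change of -0.25 (SE 0.45, 95% interval -1.28 to 0.78) became -1.06 without the first pair and 0.57 without the second. In both genes libraries 1 and 2 exceeded every Eμ-Myc library, and libraries 3 and 4 were below every one.

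The effectors had the opposite order. Bax was at 184 and 208 in knockout libraries 1 and 2 and at 306 and 281 in libraries 3 and 4, and Bak1 was at 235 and 262, then 370 and 364. The first pair was below all Eμ-Myc libraries for both genes, and the second pair was above all of them for Bak1 and within their range for Bax. The log2 fold change of Bax was -0.14 (SE 0.20, 95% interval -0.60 to 0.32), 0.15 without libraries 1 and 2 and -0.43 without libraries 3 and 4. That of Bak1 was 0.03 (SE 0.17, 95% interval -0.36 to 0.42), 0.31 without libraries 1 and 2 and -0.25 without libraries 3 and 4.

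For the remaining 4 members the spread among the knockout libraries was smaller than for Bcl2, Bmf, Pmaip1 and Mcl1. Bcl2l1 was at 66.2, 64.8, 49.8 and 57.2, with a log2 fold change of -0.10 (SE 0.15, 95% interval -0.45 to 0.26), -0.24 without libraries 1 and 2 and 0.05 without libraries 3 and 4. Bcl2l11 was at 46.6, 57.1, 41.2 and 43.3, with a log2 fold change of 0.14 (SE 0.14, 95% interval -0.18 to 0.46), -0.002 without libraries 1 and 2 and 0.28 without libraries 3 and 4. For these survival and BH3-only genes the libraries of the 2 pairs were closer together than for Bcl2.
Bbc3 was at 18.3, 25.6, 16.2 and 14.9, with a log2 fold change of -0.15 (SE 0.20, 95% interval -0.62 to 0.32), -0.39 without libraries 1 and 2 and 0.08 without libraries 3 and 4. Bid was at 75.8, 81.6, 101 and 100.1, with a log2 fold change of 0.07 (SE 0.12, 95% interval -0.22 to 0.35), 0.24 without libraries 1 and 2 and -0.11 without libraries 3 and 4. As for Bak1, the first pair was below every Eμ-Myc library for Bid and the second above every one, over a smaller range.

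**Figure D3:**
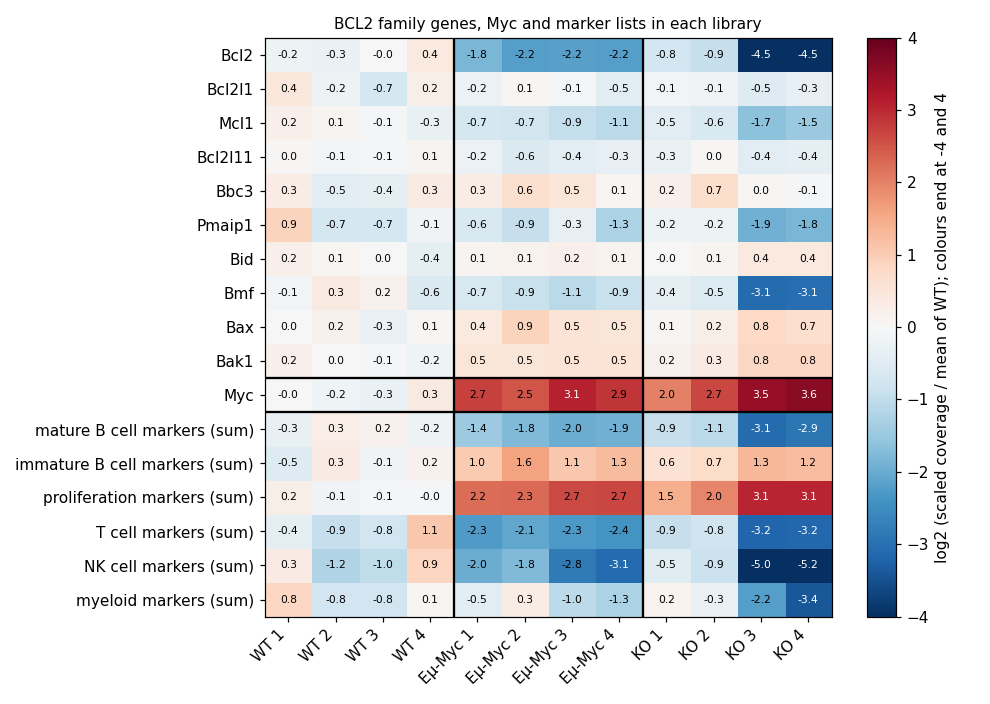
Log2 of scaled coverage over the WT mean in each of the 12 libraries, for the 10 genes, Myc and the summed markers of 6 lists; colours end at -4 and 4. Knockout libraries 1 and 2 are closer to WT than libraries 3 and 4 for Bcl2, Mcl1, Bmf, Bax and Bak1.

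How the members varied within the knockout group was uneven. The SD of log2 values there was 1.96 for Bcl2, 1.49 for Bmf, 0.94 for Pmaip1 and 0.60 for Mcl1, and 0.19 to 0.35 for the other 6, beside the median of 0.362 over all 10672 genes. Markers moved with the pairs: the NK-cell list summed to 622 and 482 in knockout libraries 1 and 2 and to 26.6 and 24.0 in libraries 3 and 4, and the myeloid list to 15540 and 11580, then 3040 and 1325. Among T-cell markers Cd3e ran from 0.555 to 71.8 over the 4 knockout libraries. The part of these other cells in the values of Bcl2, Bmf, Mcl1 and Pmaip1 was not tested. Myc moved with them too, at 1099 and 1718 in the first pair and 3017 and 3282 in the second, while Prps2 stayed between 16.2 and 18.3.

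The third comparison set the knockout group against WT, and it shares the WT libraries with the first and the knockout libraries with the second. One survival gene was called, Mcl1, making 1 of 10 members, with 0 higher and 1 lower. Of 12692 genes tested, 29.3% were called, 19.7% higher and 9.6% lower. An unadjusted p under 0.05 was reached by 5 of the 10 members and 6347 of all genes. The median log2 fold change of the members was -0.23, beside -0.01 over all genes. Groups did not overlap for 2 members, Bcl2 and Mcl1, beside 37.1% of all genes tested.

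Mcl1 fell by 1.04 on the log2 scale (SE 0.29, limma adjusted p 0.0357). The call was lost without any one of the WT libraries and without knockout library 3 or 4. Over the alternatives that kept at least 3 knockout libraries the limma adjusted p ran from 0.00882 to 0.0988. The log2 fold change of Mcl1 was -1.56 without knockout libraries 1 and 2 and -0.53 without libraries 3 and 4. Bcl2 stood at -2.50 on the log2 scale (SE 0.85, limma adjusted p 0.0564), which did not pass. Leaving out knockout libraries 1 and 2 gave -4.19 and leaving out libraries 3 and 4 gave -0.80. Bcl2 was therefore below WT in both pairs, by unequal amounts.

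Further values against WT were -1.69 for Bmf (SE 0.66, limma adjusted p 0.0782), 0.55 for Bak1 (SE 0.18, adjusted p 0.052) and 0.44 for Bax (SE 0.19, adjusted p 0.0983). Log2 fold changes were -0.87 for Pmaip1, -0.25 for Bcl2l11, -0.21 for Bcl2l1, 0.25 for Bbc3 and 0.24 for Bid, none past the threshold. With knockout libraries 3 and 4 only, the values were 0.74 for Bax, 0.83 for Bak1, -2.98 for Bmf, -1.68 for Pmaip1, -0.39 for Bcl2l11, -0.35 for Bcl2l1, 0.013 for Bbc3 and 0.41 for Bid. With knockout libraries 1 and 2 only, they were 0.15 for Bax, 0.27 for Bak1, -0.41 for Bmf, -0.05 for Pmaip1, -0.10 for Bcl2l11, -0.06 for Bcl2l1, 0.48 for Bbc3 and 0.06 for Bid.

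The balance between roles was set out in each library as a share of the summed scaled coverage of the 10 members. Shares, ratios and ranks across genes assume that coverage is a measure per base. The authors' length scaling is not stated, but median scaled coverage did not rise with exonic length, at 39.4, 41.3 and 38.8 for genes of median length 1566, 2999 and 5506 bases.
Survival genes held 55.2%, 54.2%, 54.3% and 54.0% of the sum in WT, 39.4%, 37.3%, 35.7% and 33.9% in Eμ-Myc, and 46.9%, 42.2%, 24.3% and 27.1% in knockout libraries 1 to 4. Mcl1 alone held 46.9%, 47.4%, 47.4% and 42.5% in WT and 33.5%, 30.9%, 29.3% and 28.5% in Eμ-Myc. It held 39.3%, 35.1%, 19.7% and 21.9% in the knockout libraries, so most of each survival share was Mcl1. Bcl2 held 2.72% to 5.25% in WT and 0.86% to 1.19% in Eμ-Myc, and Bcl2l1 held 3.07% to 6.2% and 4.42% to 5.58%. The effectors Bax and Bak1 held 24.0% to 27.0% in WT, 40.7% to 46.9% in Eμ-Myc, and 32.3%, 36.0%, 59.5% and 56.6% in those 4 knockout libraries. Knockout libraries 1 and 2 lay between WT and Eμ-Myc on both shares, and libraries 3 and 4 lay beyond Eμ-Myc.

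The ratio of Bax and Bak1 to Bcl2, Bcl2l1 and Mcl1 was 0.436, 0.475, 0.449 and 0.5 in WT and 1.03, 1.22, 1.25 and 1.38 in Eμ-Myc. In the knockout libraries it was 0.688, 0.853, 2.45 and 2.09. RNA for effectors thus exceeded RNA for these survival genes in all 4 Eμ-Myc libraries and in knockout libraries 3 and 4, and in none of the WT libraries.
The ratio of Bcl2l11, the gene of BIM, to Bcl2 was 0.84 to 1.23 in WT, 3.11 to 3.73 in Eμ-Myc, and 1.45, 1.99, 16.9 and 17.7 in the knockout libraries. For Bcl2l1 to Bcl2 the ratio was 0.813 to 2.06 in WT, 3.97 to 6.47 in Eμ-Myc, and 2.06, 2.26, 20.4 and 23.5 in the knockout libraries. Both ratios were higher in each Eμ-Myc library than in any WT library. In knockout libraries 3 and 4 both ratios divide by a Bcl2 scaled coverage of 2.44, near the filter of 1, so their size is uncertain. These ratios were formed from the members already described and were not tested.

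**Figure D4:**
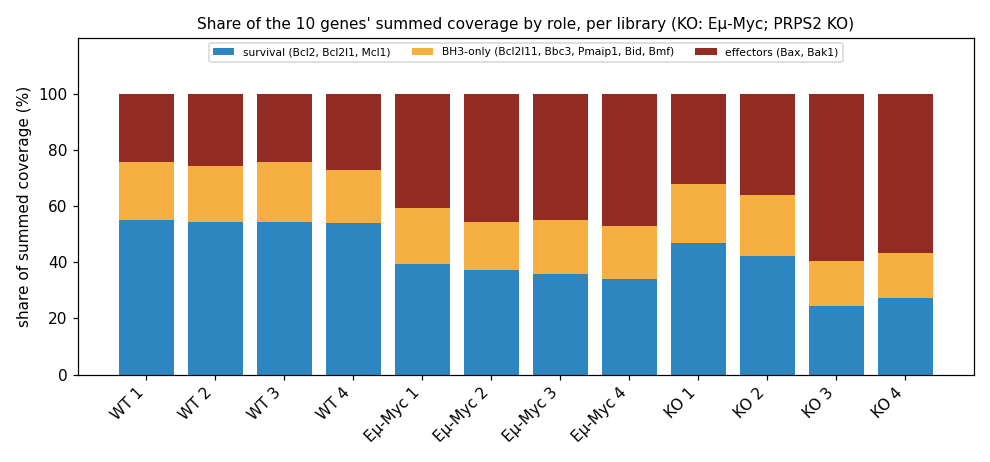
Share of the summed scaled coverage of the 10 genes held by survival, BH3-only and effector genes in each of the 12 libraries, in percent. The survival share is 54.0% or more in each WT library, and 39.4% or less in each Eμ-Myc library. Mcl1 makes up most of that share in every library.

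Other BCL2 family genes were taken from a list of 16, of which 12 were high enough to test in Eμ-Myc against WT. Bok reached the filter only through the libraries where it is high, averaging 0.165 in WT against 1.40 in Eμ-Myc on the scaled coverage, so its call is not read. Of the other 11 genes, 2 were called higher and 3 lower, beside 30.4% higher and 24.7% lower over all genes tested, and their median log2 fold change was -0.49, beside -0.01. Among survival members, Bcl2a1b fell by 1.18 on the log2 scale (SE 0.21, limma adjusted p 0.00141) and Bcl2a1d fell by 1.27 (SE 0.21, adjusted p 0.00079). Bcl2a1a was at -0.73 (adjusted p 0.0825), and Bcl2l2, which encodes BCL-W, at -0.49 (adjusted p 0.0526). The Bcl2a1 genes are near-identical copies whose reads could be split among them, so their separate values are uncertain. Scaled coverage of Bcl2a1b was 131, 146, 128 and 94.7 in WT, 62.9, 72.2, 52.2 and 36.6 in Eμ-Myc, and 83.6, 57.7, 11.3 and 9.65 in knockout libraries 1 to 4. All Eμ-Myc libraries were below all WT libraries, and knockout libraries 3 and 4 were lowest.

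Of the rest of this list, Bcl2l12 rose by 0.78 on the log2 scale (limma adjusted p 0.000505), Bcl2l13 rose by 0.38 (adjusted p 0.0341), and Bnip3l, linked to removal of mitochondria, fell by 0.50 (adjusted p 0.00439). Exons of Bcl2l13 share 628 bases with those of Bid, which had the higher coverage. If counting did not use strand, the values of Bcl2l13 could include reads of Bid, which was not tested. Log2 fold changes of 0.23 for Bad, 0.54 for Bik, -0.74 for Bcl2l14 and -0.45 for Bnip3 did not pass. Bcl2a1c, Hrk, Bcl2l15 and Bcl2l10 were too low to test, and Bcl2l10 was listed at 0 in every library. In the knockout group against Eμ-Myc, 0 of 12 genes were called by limma and 0 had an unadjusted p under 0.05, with a median log2 fold change of -0.13. Against WT the knockout group had 2 of 11 genes higher (Bcl2l12 0.67 and Bcl2l13 0.50) and 4 lower (Bcl2a1b -2.16, Bcl2a1d -2.19, Bcl2l14 -1.64 and Bnip3l -0.59), beside 19.7% higher and 9.6% lower over all genes tested.

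Downstream of the family, 23 genes of the apoptosome, the caspases and their inhibitors were tested. In Eμ-Myc against WT 11 of 23 rose and 5 fell, beside 30.4% higher and 24.7% lower over all genes tested, with a median log2 fold change of 0.24, beside -0.01. The 4 with the smallest adjusted p were Vdac1, a channel of the mitochondrial outer membrane (1.22, limma adjusted p 9.25e-06), Endog, a mitochondrial nuclease (1.85, adjusted p 4.63e-05), Birc5, which encodes survivin (2.99, adjusted p 5.06e-05), and Mtch2, which encodes a receptor for BID (0.98, adjusted p 5.86e-05). Birc5 is also a gene of dividing cells, and 10 of 10 genes of the proliferation list rose in this comparison. In the knockout group against Eμ-Myc 0 of 23 were called by limma and 0 had an unadjusted p under 0.05. Among the genes with the smallest unadjusted p there, none passing, were the caspase genes Casp6 (-0.29, p 0.218) and Casp8 (-0.12, p 0.342). Against WT the knockout group had 9 higher and 3 lower, beside 19.7% and 9.6% over all genes, among them Birc5 2.81 (adjusted p 0.0109), Vdac1 1.21 (adjusted p 0.0216), Endog 1.85 (adjusted p 0.0279) and Cflar, an inhibitor of caspase activation, at -1.20 (adjusted p 0.0369).

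Upstream, 16 factors known to act on these genes or proteins were tested. In Eμ-Myc against WT 2 of 16 rose and 8 fell, beside 30.4% higher and 24.7% lower over all genes tested, with a median log2 fold change of -0.41, beside -0.01. E2f1, a cell-cycle factor, rose by 1.94 on the log2 scale (limma adjusted p 5.69e-06), and Trp53, which encodes p53, rose by 0.84 (adjusted p 0.000177). Nfkb1, whose pathway drives survival genes, fell by 0.80 (adjusted p 0.000172), and Foxo1, a FOXO factor, fell by 1.29 (adjusted p 0.000183). Of known p53 targets among the members, Bax rose in this comparison (0.59, adjusted p 0.00578), and Bbc3 and Pmaip1 did not pass. In the knockout group against Eμ-Myc 0 of 16 were called by limma and 0 had an unadjusted p under 0.05. The 3 smallest unadjusted p, none passing, were those of Huwe1 (0.47, p 0.115), a ligase for MCL1, Stat5b (0.21, p 0.121) and Usp9x (0.57, p 0.182), which encodes a deubiquitinase of MCL1. Huwe1 and Usp9x were low in Eμ-Myc library 2, at 22.3 and 4.09. The other Eμ-Myc libraries held 46.0 to 52.3 for Huwe1 and 14.1 to 16.2 for Usp9x, so both log2 fold changes rest largely on that library. Against WT the knockout group had 3 higher and 5 lower, beside 19.7% and 9.6% over all genes, among them E2f1 1.78 (adjusted p 0.0106), Trp53 0.78 (adjusted p 0.0117), Foxo1 -1.49 (adjusted p 0.0337) and Pim2, a kinase that acts on BAD, at -0.88 (adjusted p 0.0363).

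For each member the 2 genes most like it over the 12 libraries were found among 9651 genes, by the root mean square difference of centred log2 values, where 0 would be the same pattern. Mcl1 was nearest to Hbp1 (0.073) and Pttg1ip (0.097), and Bcl2 to Dennd2d (0.169) and Pou6f1 (0.191). Bmf was nearest to H2-DMb2 (0.132), a gene of antigen presentation, and Fcrl1 (0.169), a B-cell surface receptor gene. Bcl2l11 was nearest to Wdr26 (0.058) and Brap (0.06), Bax to Cwc15 (0.06) and Atp5d (0.064), Bak1 to Pdk3 (0.062) and Coro1c (0.07), and Bid to Rab1a (0.062) and Nagpa (0.076). The other 3 members had as nearest genes, for Pmaip1, Sgk1 (0.21) and Scamp1 (0.235), for Bbc3, Slc39a11 (0.18) and Snora70 (0.187), and for Bcl2l1, Rassf1 (0.146) and Cdc42ep3 (0.165). The libraries are shared by all these values, and no test was made.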

How the data were processed

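Polyadenylated RNA from splenic B lymphocytes was made into directional libraries, per the labels' protocols. The authors deposited 1 file per library, 12 in all, with the coverage of each gene, a signal with 91.6% of values above 0 not whole, so no count model was used. Submitters' processing notes name R 4.3.3 and mm10, among others. The aligner and counting step are not given in the sources used here. Coverage summed to 1277305.5 to 1885768.9 per library, and 14900 to 16231 genes were above 0.

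Libraries were grouped by the labels' genotype. One factor per library came from unweighted trimmed means of log ratios (30% of ratios and 5% of means trimmed). Genes reaching a scaled coverage of 1 in 4 or more of a comparison's 8 libraries were tested two-sided with limma 3.58.1 in R 4.3.3 (trended, robust) on log2(scaled coverage + 0.5), with Benjamini-Hochberg adjustment over all genes. The steps were tested on simulated data. Python 3.11.15, numpy 2.4.6, pandas 2.3.3 and matplotlib 3.10.9 made tables and figures. Gene positions are from GENCODE on GRCm38.

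The members, lists, tests and alternatives were chosen with earlier results of these data known. Named genes were the 10 members, all of the other BCL2 family list, and of the 2 further lists the 4 called genes with the smallest adjusted p. Where none was called, the 3 with the smallest p were named, except 1 that is not reported here. The 2 genes most like a member were sought among genes averaging at least 8, leaving out Gm and Rik symbols. The alternatives were other scalings, pseudocounts of 0.1 and 2, no filter, a minimum of 10 in each library compared, a replicate block, one fit of all 12 libraries, and leaving out each library or knockout pair.

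Replicate numbers are shared by the groups. In the knockout group against Eμ-Myc, deviations of same-numbered libraries correlated across genes at 0.716, 0.213, 0.29 and 0.682, so the numbers were taken to pair the libraries. The values printed are from the fit without a replicate block, and the block was an alternative. No label states this pairing, and knockout library 2 correlated more with Eμ-Myc library 1 (0.675) and library 3 more with Eμ-Myc library 4 (0.662) than with their own numbers.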

Additional observations from a re-analysis of the deposited data

Results flagged for a closer look

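Bcl2 in Eμ-Myc library 1, at a scaled coverage of 15.1, stood apart from Eμ-Myc libraries 2 to 4, which were at 11.7, 11.9 and 11.8. Its gap to the nearest of them was 0.947 of the group's whole range, above Dixon's 95% critical value for 4 libraries. Across the 10 members and 3 groups 30 such checks were made and 1 passed, and chance flags about 1 in 20. Without this library the log2 fold change of Bcl2 in Eμ-Myc against WT kept its direction and its call.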

How the results depend on the processing

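In Eμ-Myc against WT, 157 of 160 member values over the alternatives kept direction and call, and no count of calls moved by over 1.5 times. The exceptions were the lost call of Bmf given above, Bid at -0.014 with total coverage scaling, and Bcl2l1, which ran from -0.326 to 0.053 over the left-out libraries. Total coverage scaling shifted the median of all genes by -0.18 here and by -0.15 in the knockout group against WT.

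In the knockout group against Eμ-Myc, 157 of 179 member values kept both. Leaving out single libraries gave ranges of -1.05 to 0.11 for Bcl2, -0.388 to 0.009 for Mcl1, -0.519 to 0.039 for Pmaip1 and -0.067 to 0.152 for Bak1. Without knockout libraries 1 and 2, 3495 genes and 5 members were called, and the values that turned were Bcl2l11 at -0.002 and Bax at 0.15. Without libraries 3 and 4, 524 genes and 1 member were called, and the values that turned were Bcl2 1.24, Bcl2l1 0.051, Mcl1 0.33, Bbc3 0.082, Pmaip1 0.57, Bak1 -0.25, Bid -0.11 and Bmf 0.42. With the replicate block 1 gene and 0 members were called, and the block changed no call of a member.

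In the knockout group against WT, 155 of 179 kept both. The main fit called 1 member and 3716 of 12692 genes. Members called numbered 2 with the filter of 10, 4 with all 12 libraries, 7 without knockout libraries 1 and 2, and 0 to 5 over single left-out libraries. All genes called numbered 6061 with all 12 libraries, 1863 with the replicate block, 8617 and 1323 without the first and second knockout pair, and 600 to 6633 over single left-out libraries. The genes tested under each alternative are not given here, so counts of members in this section are not set against the background. In both comparisons with WT the numbers did not pair the libraries (correlations of deviations from -0.459 to 0.435), and the block gave 7184 genes in Eμ-Myc against WT. The pairs were told apart by these values, so counts of calls without a pair would be favoured by that choice and are not given. The cause of the shifts in these counts was not tested. The filter of 10, applied to every library, could not test Bcl2 in the knockout comparisons. Depth is unknown, so it sets no limit that can be stated.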
